A study of Arabidopsis thaliana with 12 samples.

Results

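A set of 112 protein-coding genes with no name of their own in the deposited annotation had at least 2-fold less transcript under low phosphate in roots of both genotypes of an *Arabidopsis thaliana* study. They were chosen by a rule on the deposited group means, which are log2 CPM (CPM being reads of a gene scaled to library size, so that a difference of 1 is a 2-fold change). A gene entered when it was protein-coding, had a blank name or its own locus code as name, had a -Pi mean at least 1 below the +Pi mean in *crr* and again in Col-0, and reached at least 1 in its highest group. Genes whose description held one of 6 terms were left out: pectinesterase, NAC domain, bHLH, Peroxidase, SAUR or heat shock. Of 20017 genes in the table, 9134 were protein-coding and unnamed, 9076 remained without those terms, and 112 met every limit. The left-out terms removed 1 gene that met the other limits. AT3G12977, a NAC regulator, and AT5G50760, a SAUR-like gene by its RefSeq product, stayed in because their descriptions did not hold the exact terms.

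RNA was sequenced from 12 root libraries, 3 in each of 4 groups, from seedlings grown for 7 days on agar. The groups were *crr* under -Pi, *crr* under +Pi, Col-0 under -Pi and Col-0 under +Pi, where +Pi is 1 mM phosphate and -Pi had none added beyond a residual amount in the medium. *crr* is a T-DNA insertion in CRR, a plasma membrane ferric reductase with a DOMON and a cytochrome b561 domain, in the Col-0 background, and the line is a single insertion allele. Each library was a pool of seedling roots, described in the methods as a biological replicate. The deposited values were the authors' means per group, so no value of a single library could be used. The tables give no read totals, and the read numbers that the study lists for each library were not used here. CRR itself (AT3G25290) had means of -0.11 under -Pi and -0.38 under +Pi in *crr*, against 5.64 and 5.99 log2 CPM in Col-0.

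Roots short of phosphate switch on genes for phosphate uptake, for recycling of phospholipids and for acid phosphatases, largely through the transcription factor PHR1 and its relatives. At the same time they reduce genes of iron uptake and genes of growth. All 13 Pi starvation markers examined, among them SPX1, IPS1 and PAP17, rose in both genotypes.

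The rule used both Pi responses, so they are given as a description with no test. The 112 members had a median Pi response of -1.64 in *crr* and -1.57 in Col-0, with lowest responses of -7.10 and -6.30 in AT3G12900. The sizes of these lowest responses are uncertain. The *crr* -Pi mean of that gene rests on the floor of the table and its Col-0 -Pi mean of -4.21 lies near it. Of the 112 members, 107 were called lower in *crr* and 108 in Col-0, and 105 in both. A call is an adjusted p below 0.05 and a change of at least 2-fold. Over all 20017 genes, 2.89% were called lower in *crr* and 2.13% in Col-0. Called higher under -Pi were 842 of the 20017 in *crr* and 696 in Col-0. The 7 members not called in both had standard errors (SE) of a difference between 0.40 and 0.79, beside a median SE of 0.24 over the members. AT2G31540, a GDSL esterase, was not called in either genotype, with -1.22 in *crr* and -1.24 in Col-0 at an SE of 0.79. In all, 25 members had a mean response of -2 or lower (4-fold) and 9 of -3 or lower (8-fold). In bulk roots, fewer cells of a type and less RNA per cell cannot be told apart.

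**Figure D1:**
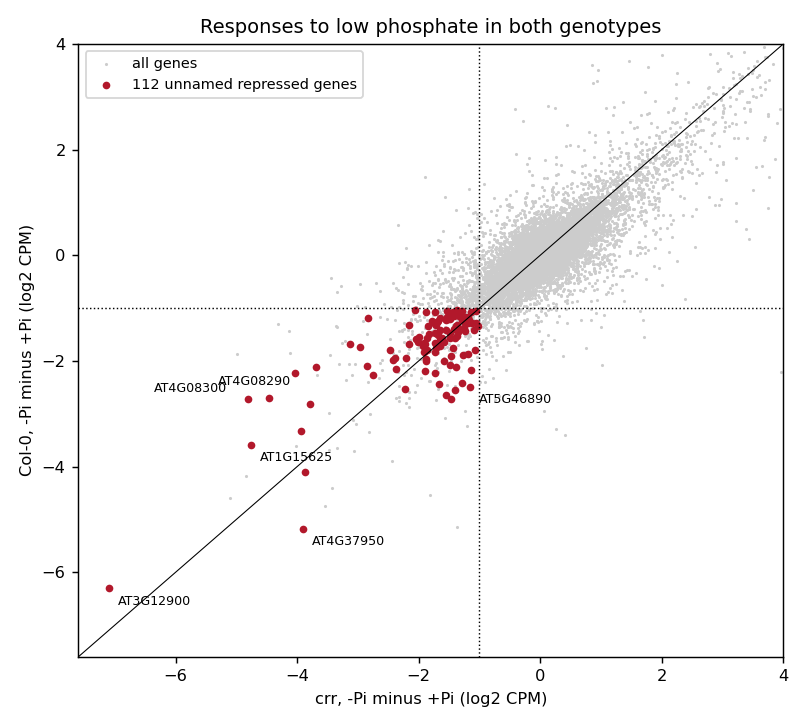
Difference between -Pi and +Pi in *crr* (x axis) and in Col-0 (y axis), both in log2 CPM, for all genes with responses up to 4 (grey; higher ones lie outside the axes) and the 112 members (red). Dotted lines mark the limit of -1 and the solid line equal responses. Members lie below both dotted lines by choice. AT3G12900 is the lowest in both genotypes, with -Pi means at or near the floor of the table.

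Members just inside the limit were AT4G25830, a CASP-like protein (-1.03 in *crr*, -1.34 in Col-0), AT1G53635 (-2.06 in *crr*, -1.03 in Col-0) and AT2G34610, a cotton fiber protein (-1.38 in *crr*, -1.04 in Col-0). Just outside were AT2G34510 (-1.08 in *crr*, -0.99 in Col-0), AT1G07700, a thioredoxin superfamily protein (-0.99 in *crr*, -1.01 in Col-0), and AT2G40230, an acyl-transferase (-1.53 in *crr*, -0.99 in Col-0).

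A keyword rule on the deposited descriptions put 55 of the 112 in a class with no function named. The class took in blank and locus or clone names and descriptions with DUF that matched no other class first. An example is AT3G63540, whose description also names a PsbP family. AT4G19370, a putative chitin synthase with DUF in its description, went to the oxidoreductase or transferase class. In RefSeq, on the TAIR10.1 assembly, 11 members had the product name uncharacterized protein. RefSeq gave a symbol to 3 members, among them UMAMIT17 and UMAMIT20. By the same keywords, 12 members matched lipid terms, 10 kinase, receptor or phosphatase terms, 10 oxidoreductase or transferase terms, 3 transport, 3 protein turnover or inhibitor, 2 defence, 1 cell wall, 1 transcription and 15 none of these. Keywords are not functions: the kinase terms took in AT2G38600, an acid phosphatase, and AT1G80180, a kinase substrate, and the inhibitor term took in AT5G62360.

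Genes with the deepest responses had low means under -Pi. AT4G37950, a rhamnogalacturonate lyase family protein, which cut pectin backbones, averaged -1.73 under -Pi and 2.18 under +Pi in *crr*, and -2.53 under -Pi and 2.64 under +Pi in Col-0. AT1G15625, described as an E3 ubiquitin ligase, averaged -3.76 under -Pi and 1.00 under +Pi in *crr*, and -1.92 under -Pi and 1.66 under +Pi in Col-0. AT4G39675, a protein of 70 residues with no known function, averaged -2.65 under -Pi and 1.23 under +Pi in *crr*, and -3.08 under -Pi and 1.01 under +Pi in Col-0. Every one of the 12 deepest members had both -Pi means below both +Pi means, which follows largely from how they were chosen.

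**Figure D2:**
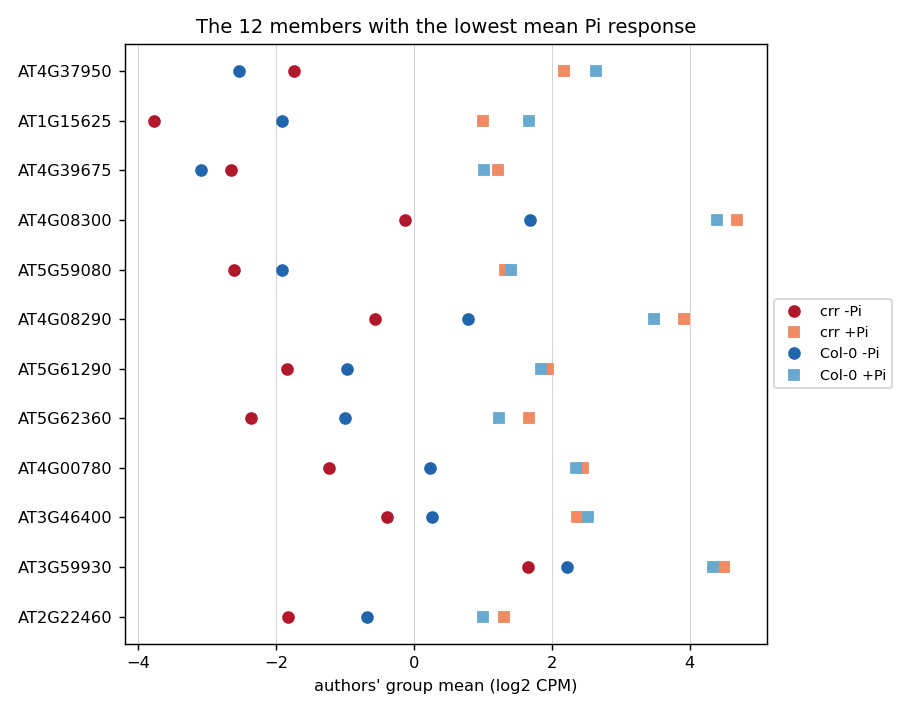
The authors' group means (x axis, log2 CPM) of the 12 members with the lowest mean Pi response among those not at the floor of the table (y axis), with *crr* in red and orange and Col-0 in blue, circles for -Pi and squares for +Pi. The -Pi means lie left of the +Pi means in every row, largely by choice, and AT1G15625 in *crr* under -Pi is the lowest at -3.76.

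Further deep members were AT5G59080, of unknown function (mean response -3.63), AT5G61290, a flavin-containing monooxygenase (-3.30), and AT5G62360, a pectin methylesterase inhibitor family protein (-3.13). AT4G00780, a TRAF-like protein, had -2.91, AT3G46400, a leucine-rich repeat kinase, -2.51, AT3G59930, a defensin-like protein, -2.47, and AT2G22460, of the MIZU-KUSSEI-like family, -2.40.

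A pair of transporter genes stood next to each other on chromosome 4. UMAMIT20 (AT4G08290) and UMAMIT17 (AT4G08300) belong to the MtN21/EamA-like family, several of whose members export amino acids. Their proteins were 48.7% identical over 349 aligned residues, and 3752 bases separated the genes. UMAMIT17 averaged -0.13 under -Pi and 4.69 under +Pi in *crr*, and 1.68 under -Pi and 4.39 under +Pi in Col-0. UMAMIT20 averaged -0.56 under -Pi and 3.91 under +Pi in *crr*, and 0.78 under -Pi and 3.48 under +Pi in Col-0. The *crr* minus Col-0 difference under -Pi was -1.80 ± 0.51 (SE) for UMAMIT17 and -1.33 ± 0.33 for UMAMIT20. Neither passed, with limma adjusted p of 0.177 and 0.0822. This contrast shares group means with the rule, so the differences are a description. In the whole family, 3 of 36 measured genes were called lower under -Pi in *crr* and 3 in Col-0, beside 2.89% and 2.13% of all genes. Called higher were 4 in *crr* and 2 in Col-0, beside 842 and 696 of all 20017 genes.

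The lipid-transfer protein family gave 7 members. Proteins of this family are typically small and secreted, with a fold held by disulfide bridges, and can bind lipids. The proteins of 6 of the 7 had 127 to 149 residues and a hydrophobic stretch near the N terminus, while that of AT3G22142 had 1480 residues and no such stretch. Of 45 family genes measured, 9 were called lower under -Pi in *crr* and 10 in Col-0, beside 2.89% and 2.13% of all genes. Called higher were 5 in *crr* and 6 in Col-0, beside 842 and 696 of all 20017 genes. AT5G46890 averaged 5.45 under -Pi and 6.60 under +Pi in *crr*, and 4.24 under -Pi and 6.74 under +Pi in Col-0. Its neighbour AT5G46900 averaged 4.91 under -Pi and 6.38 under +Pi in *crr*, and 3.80 under -Pi and 6.51 under +Pi in Col-0. In both, the +Pi means of the genotypes lay close together and the -Pi mean of *crr* lay above that of Col-0. Col-0 was 5.64-fold lower under -Pi for AT5G46890, and *crr* was 2.23-fold lower.

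**Figure D3:**
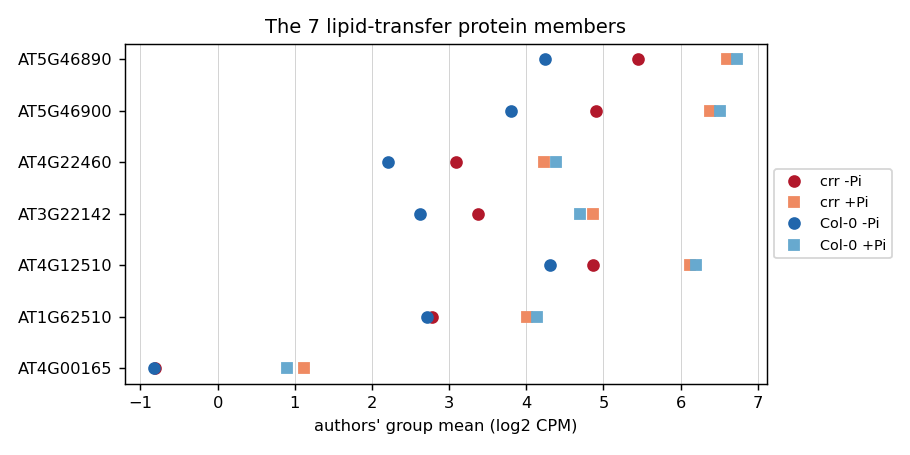
The authors' group means (x axis, log2 CPM) of the 7 lipid-transfer protein members (y axis), with *crr* in red and orange and Col-0 in blue, circles for -Pi and squares for +Pi. From the top, the *crr* -Pi circle lies right of the Col-0 -Pi circle by 1.21 in AT5G46890 and by 1.11 in AT5G46900.

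Differences between the genotypes are read against the fit over all genes. The effect of genotype averaged over both Pi levels is independent of both Pi responses. It called 0 members with limma, against 0.03% of all genes. An unadjusted p below 0.05 was found in 24 members (21.4%), beside 8.17% of all genes. Among the 142 named genes that met the same limits on values the share was 21.8%, so it is not particular to the members. At any fold, 1 member passed, against 0.39% of all genes. That member was AT4G04990, by its RefSeq product a serine/arginine repetitive matrix-like protein. It averaged 1.14 under -Pi and 3.13 under +Pi in *crr*, against 2.07 and 3.62 in Col-0. Its genotype average was -0.71 ± 0.15 (SE), with a limma adjusted p of 0.0419. The median genotype average of the members was -0.12, beside -0.0952 in those 142 named genes and -0.0031 over all genes.

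The contrasts of *crr* and Col-0 within each Pi level share group means with the rule, and are a description. The interaction is the difference of the very responses that the rule used, so its values and calls are a description and no p is printed. Under -Pi, 3 members were called, against 0.235% of all genes. AT5G46890 was higher in *crr* by 1.21 ± 0.20 (SE; limma adjusted p 0.0043) and AT5G46900 by 1.11 ± 0.19 (0.00628). AT2G28270, a C1 domain protein, averaged 0.09 in *crr* and 1.53 in Col-0 under -Pi, a difference of -1.43 ± 0.28 (0.0156). At any fold, 6 members passed, against 1% of all genes, with AT4G22460 (0.87 ± 0.17) and AT4G12510 (0.55 ± 0.12) of the lipid-transfer family higher in *crr*, and AT5G58330, the chloroplast NADP-malate dehydrogenase, lower (-0.61 ± 0.13). Under +Pi, 0 members were called with limma, against 0.03% of all genes, and 3 (2.68%) had an unadjusted p below 0.05, beside 3.82% of all genes. In the interaction 1 member was called, against 0.125% of all genes: AT5G46890, with 1.34 ± 0.29 (SE). AT5G46900 had an interaction of 1.24 ± 0.27. Nothing is read from this count.

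**Figure D4:**
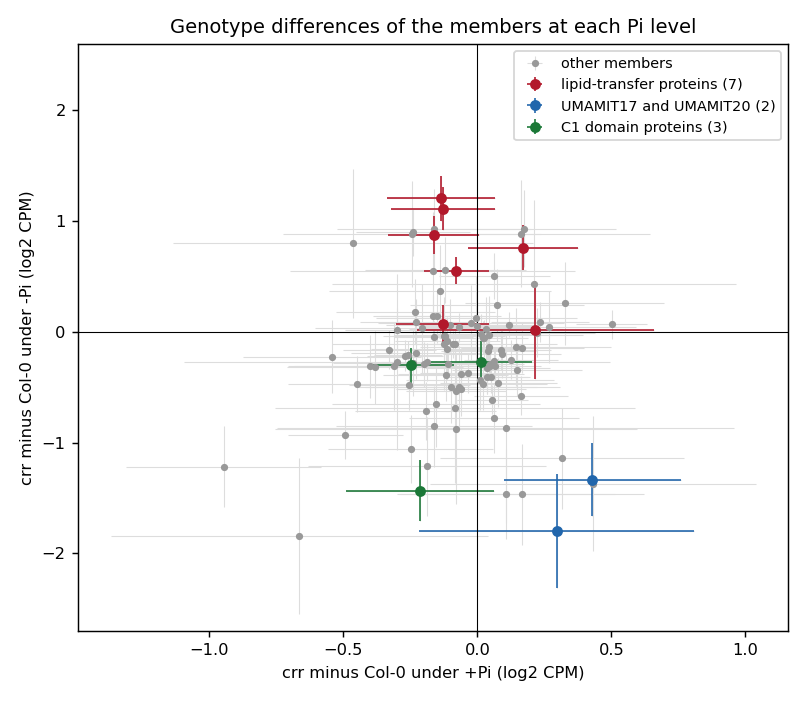
Difference *crr* minus Col-0 under +Pi (x axis) and under -Pi (y axis), in log2 CPM, for the 112 members. Bars are the SE of each difference, recovered from the deposited p-values; red marks the 7 lipid-transfer proteins, blue the 2 UMAMIT genes and green the 3 C1 domain proteins. AT5G46890 is the highest at 1.21 under -Pi, and AT2G28270 is the lowest of the green points at -1.43.

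Reads may be shared between some of these genes. The proteins of AT5G46890 and AT5G46900 were 95.3% identical over 127 residues, and 26.8% of the 50-base windows of AT5G46890 and 22.5% of those of AT5G46900 occurred elsewhere in the genome. For AT4G12510 the share was 51.8%, and its deposited description names another locus. Over 10% of windows occurred elsewhere in 6 members, the others being AT2G31540 (31.6%), AT3G59930 (22.2%) and AT3G23510 (17.4%). The values of these 6 genes are uncertain, since how reads that match several places were counted was not checked. The genes of the pair lay 2762 bases apart on the same strand of chromosome 5. Their upstream sequences are shown because both genes had the same pattern. The best aligned 30 bases upstream of the annotated starts, in TAIR10.1 and on the gene strand, matched at 26 positions, and capitals mark the bases that differ.
AT5G46890 (chr5:19037070-19037099): tcttGacagTttgtaagatcaaCcaatTca
AT5G46900 (chr5:19040554-19040583): tcttAacagGttgtaagatcaaTcaatAca
For the other 3 neighbouring pairs of members, the best aligned 30 upstream bases matched at 18 to 21 positions.

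A few further members, picked after their values were seen, belong to enzyme families by their annotation. AT2G43590, an endochitinase, had means of 5.37 under -Pi and 6.96 under +Pi in *crr*, and 5.59 under -Pi and 7.23 under +Pi in Col-0. AT4G18340, a beta-1,3-glucanase-like protein of the kind that cuts callose, had 5.18 under -Pi and 6.67 under +Pi in *crr*, and 5.29 under -Pi and 6.76 under +Pi in Col-0. In both genes all 4 means stayed above 5. AT1G19900, a glyoxal oxidase-related protein, had a Pi response of -1.73 in *crr* and -1.66 in Col-0. AT1G05650, a pectin lyase-like protein, had a Pi response of -1.40 in *crr* and -2.54 in Col-0. Its *crr* minus Col-0 difference under -Pi, again a description, was 0.90 ± 0.21 (SE) and did not pass (limma adjusted p 0.0634).

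The 3 C1 domain members are rich in cysteine and histidine, and their roles in plants are little known. AT2G28270 had means of 0.09 under -Pi and 3.06 under +Pi in *crr*, and 1.53 under -Pi and 3.27 under +Pi in Col-0. AT2G44380, whose protein was 67.5% identical to that of AT2G28270, had 4.31 under -Pi and 5.59 under +Pi in *crr*, and 4.61 under -Pi and 5.84 under +Pi in Col-0. AT2G42060 had 2.07 under -Pi and 3.55 under +Pi in *crr*, and 2.34 under -Pi and 3.54 under +Pi in Col-0. The *crr* minus Col-0 difference under -Pi, again a description, was -0.30 ± 0.16 (SE) for AT2G44380 and -0.27 ± 0.19 for AT2G42060. Neither passed.

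The 3 CASP-like members are membrane proteins related to those that place the Casparian strip. AT3G06390 had a Pi response of -2.02 in *crr* and -1.64 in Col-0, AT2G39530 of -1.35 in *crr* and -1.46 in Col-0, and AT4G25830 lay at the limit. Lipid-related members included AT2G40250, a GDSL esterase, with a Pi response of -1.56 in *crr* and -2.65 in Col-0, and AT1G06120, a desaturase-like protein that adds double bonds to fatty acids, with -1.89 in *crr* and -2.18 in Col-0. AT5G23840, which holds an MD-2-related lipid recognition domain, had a Pi response of -1.92 in *crr* and -1.83 in Col-0. AT1G45015, with the same domain, had -1.67 in *crr* and -2.43 in Col-0. Among oxidoreductases, AT5G62420, an aldo/keto reductase, had means of 1.61 under -Pi and 3.83 under +Pi in *crr*, and 1.47 under -Pi and 4.0 under +Pi in Col-0.

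Kinases formed another group of alike members. Leucine-rich repeat receptor kinases sense signals at the cell surface. In this family or close to it stood 6 members, AT1G07550, AT1G07560, AT1G51830, AT1G51840, AT3G46400 and AT5G59680. AT1G07550 and AT1G07560 stood 744 bases apart with proteins 57.4% identical, and AT1G51830 and AT1G51840 stood 3246 bases apart. AT1G51830 averaged 6.80 under -Pi and 8.13 under +Pi in *crr*, and 7.09 under -Pi and 8.24 under +Pi in Col-0. Of 108 family genes measured, 6 were called lower under -Pi in *crr* and 7 in Col-0, beside 2.89% and 2.13% of all genes. Called higher were 8 in *crr* and 9 in Col-0, beside 842 and 696 of all 20017 genes.

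A few members are known from the response to iron. AT3G12900, the lowest member, encodes scopoletin 8-hydroxylase, which makes fraxetin, a coumarin that roots secrete to mobilise iron. Its mean was 2.01 under +Pi in *crr* and 2.09 in Col-0. Under -Pi it was listed at the lowest value of the table, -5.09, in *crr* and at -4.21 in Col-0, so the size of its response is uncertain. AT1G73120 averaged 2.09 under -Pi and 3.95 under +Pi in *crr*, and 2.12 under -Pi and 3.91 under +Pi in Col-0. AT5G38820, an amino acid transporter family protein, averaged 1.13 under -Pi and 2.53 under +Pi in *crr*, and 0.89 under -Pi and 2.45 under +Pi in Col-0. Of 6 iron deficiency loci examined, 5 of them unnamed in the table, these 2 were called lower in both genotypes and belonged to the set. The others did not all fall. AT3G07720 was higher under -Pi by 0.51 in *crr* and 0.35 in Col-0, and AT2G20030 by 0.02 and 0.10. AT3G61930 had responses of -0.46 in *crr* and -0.73 in Col-0, and AT5G05250 of -0.20 and -0.74. The named iron genes IRT1, FRO2 and CYP82C4 fell in both genotypes, IRT1 by 2.66 in *crr* and by 2.32 in Col-0. AT1G21140, a vacuolar iron transporter homolog, averaged 2.88 under -Pi and 4.44 under +Pi in *crr*, and 2.79 under -Pi and 4.20 under +Pi in Col-0. It is not one of the iron deficiency loci or named iron genes above. Its direction under iron deficiency was not examined, so its fall is not read together with theirs.

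Some members are proteins of chloroplasts. AT5G58330 averaged 3.32 under -Pi and 5.06 under +Pi in *crr*, and 3.93 under -Pi and 5.0 under +Pi in Col-0. AT3G63540, a thylakoid lumen protein, averaged 1.01 under -Pi and 2.66 under +Pi in *crr*, and 1.53 under -Pi and 2.72 under +Pi in Col-0. Green tissue markers moved with Pi supply as well: 6 of 7 measured were called lower under -Pi in *crr* and 2 in Col-0. The shares over all genes were 2.89% and 2.13%. At any fold, all 7 were lower under -Pi in both genotypes at a limma adjusted p below 0.05. The median response of the markers was -1.29 in *crr* and -0.72 in Col-0. The counts of 6 and 2 depend on the 2-fold limit, but all 7 fell further in *crr* than in Col-0. The interaction ran from -0.03 in PSBO1 to -1.20 in RBCS1A. RBCS1A fell by 1.73 in *crr* and by 0.53 in Col-0, and only its interaction passed (limma adjusted p 0.0455). The summed level of the 7 markers was 5.64 under -Pi and 6.97 under +Pi in *crr*, and 5.94 under -Pi and 6.90 under +Pi in Col-0, in log2 CPM. Their part in the members' values was not tested. Among 6 root markers, 1 was called lower in each genotype, which was IRT1. At any fold the root markers moved both ways. PYK10 fell by 0.83 in *crr* and 0.55 in Col-0, and COBL9 rose by 0.79 and 0.61. CASP1 rose by 0.42 in *crr* only, GL2 fell by 0.40 in Col-0 only, and NRT2:1 did not pass.

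Levels between genes are compared per length of exon, as log2 CPM per kilobase. Averaged over both genotypes under +Pi, AT5G46890 was highest with 7.31. AT3G52060, a glycosyltransferase-like protein, followed with 7.25 and AT4G29905, a 67-residue protein with 7 cysteines, with 7.06. Next came AT2G43590, an endochitinase, with 6.95, AT5G46900 with 6.85 and AT1G51830 with 6.81. AT4G29905 averaged 4.10 under -Pi and 6.52 under +Pi in *crr*, and 4.63 under -Pi and 6.60 under +Pi in Col-0.

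The shortest proteins were those of AT2G22122 (60 residues), AT1G49500 (63 residues) and AT4G29905 (67 residues). Cysteine took the largest share in AT4G29905, AT3G59930 (8 of 80 residues) and AT3G47650 (11 of 136 residues). A hydrophobic stretch of 19 residues within the first 35, as signal peptides have, was found in 36 of 112 members (32.1%), in 26.1% of the 142 named genes that met the same limits on values, and in 14.6% of all protein-coding genes. The median length was 273.5 residues in members and 390.5 in all protein-coding genes.

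Motifs were searched on both strands from 250 bases before to 50 after the annotated start, in 111 members with a full window. GNATATNC, the P1BS site bound by PHR1, was found in 8 members (7.21%), beside 18.6% of 215 unnamed genes at least 2-fold higher under -Pi in both genotypes and 6.28% of all protein-coding genes. TTGAC (W-box core) was in 49.5% of members and 51.3% of all, CACGTG (G-box) in 4.5% and 8.65%, TGTCTC (auxin response element) in 5.41% and 13.6%, and AAATATCT (evening element) in 8.11% and 5.81%. TATAAA, added after the sequences were seen, was in 63.1% of members and 51.8% of all. A match is a description of the letters and not a binding site. The upstream matches to P1BS are shown for 3 members in different classes, on the gene strand with the match in capitals.
AT5G58330 (chr5:23582474-23582503): aacggtttcagGTATATTCtgttattgggc
AT4G30450 (chr4:14886802-14886831): cactcttcaatGCATATCCattataatttc
AT4G11100 (chr4:6768364-6768393): ttttccGGATATCCgtttcgtacccagacc

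**Figure D5:**
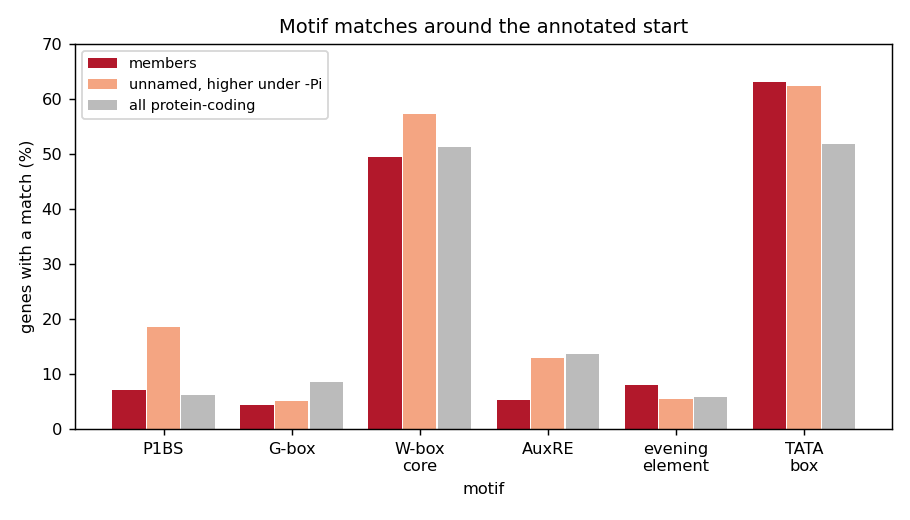
Share of genes with each motif (y axis, %) in the window around the annotated start, for members (red), unnamed genes higher under -Pi (orange) and all protein-coding genes (grey). P1BS was found in 7.21%, 18.6% and 6.28% of these sets.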

How the data were processed

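Per the labels and the study's methods, the authors trimmed reads (cutadapt 1.8), aligned them to TAIR10 (STAR 2.5.3a), counted reads per gene (HTSeq 0.9.1) and deposited group means of log2 CPM with TMM scaling (edgeR 3.24.3). They fitted 12 libraries with limma-trend and deposited p-values of 4 pairwise contrasts. Those p-values were used only to recover the SE of each gene, at 20.3 degrees of freedom, and tests of the interaction and the genotype average were rebuilt from it in Python 3.11 (scipy) and checked on simulated data with limma 3.58.1. Other deposited comparison columns, which hold fold changes and adjusted p-values, were not used. Adjustment was by Benjamini-Hochberg over 20017 genes, pooling both Pi contrasts and both genotype contrasts. The methods describe 3 biological replicates per group, each a pool of seedling roots, so p-values measure the spread between pools. The members and lists were chosen with earlier results of these data known. Named genes are the deepest, the most abundant per length, those called between genotypes, the lowest of each class, alike neighbours, those at the limit, iron loci and the shortest or most cysteine-rich proteins; others, and the protein families, were picked after their values were seen. Protein features came from RefSeq coding sequences, compared with blastp 2.17.0.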

Additional observations from a re-analysis of the deposited data

Results flagged for a closer look

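AT5G46890 was marked because its responses to low phosphate differed between the genotypes, with an interaction of 1.34 on the log2 scale. Both responses were used to choose the members, so the value is a description and not a test, and 26.8% of its 50-base windows occur elsewhere in the genome. Groups of 3 libraries, given only as means, allowed no search for single libraries that stand apart.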

How the results depend on the processing

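With a highest group mean of at least 3 the set held 65 genes, with both responses at most -0.8 it held 183, and at most -1.5 it held 46. At -1.5 the median response was -2.0 in *crr* and -1.94 in Col-0, by construction of the limit. The genotype average called 1 gene at any fold and 1 at the limit of -0.8. Under -Pi, 6 members passed at any fold, 5 genes were called at -0.8 and 1 at -1.5. The interaction called 2 genes at -0.8 and 0 at -1.5, which is a description only because the rule used both responses. Counts under no filter, centring and separate adjustment stayed within 1.5 times the values reported. Matching the left-out terms in their own letter case, tried after seeing the data, also gave 112 genes. The share of members with GNATATNC was 5.41% before the start only and 4.35% at -1.5, beside 7.21%. No paired analysis was possible because the tables hold group means only, and leaving out each replicate in turn was not run for the same reason. The read numbers of single libraries were not used.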

Other observations

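The 34 CASP-like (UPF0497) genes measured are relatives of the proteins that build the Casparian strip. Of these, 4 were called lower under -Pi in *crr* and 4 in Col-0, beside 2.89% and 2.13% of all genes. With limma at 2-fold, 0 were called higher in either genotype, while 4 in *crr* and 2 in Col-0 were higher at any fold. Over all 20017 genes, 842 were called higher in *crr* and 696 in Col-0, so nothing is read from the 0. Of 110 C1 domain genes, 7 were called lower in *crr* and 4 in Col-0, beside the same 2.89% and 2.13% of all genes. Called higher were 8 in *crr* and 4 in Col-0. Named genes that met the same limits numbered 142, with median responses of -1.64 in *crr* and -1.43 in Col-0.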
